A study of Mus musculus with 1920 samples.

Results

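The 10 genes described here belong to the enteroendocrine lineage and were followed through single Lgr5-high intestinal stem cells (ISCs) of young and aged mice. They were the fate factors Neurog3 and Neurod1, the granule proteins Chga and Chgb, the enterochromaffin products Tac1 and Tph1, and the hormone genes Cck, Gip, Sct and Ghrl. They make up 10 of the 55471 gene identifiers in the deposited count table and were found there by mapping each Ensembl identifier to its symbol. The 1836 of 1920 cells with at least 1000 detected genes were used. They came from 3 young and 4 aged mice, labelled Young and Old, with no age in weeks in the labels. Every mouse, young or aged, carried B6.129P2-Lgr5tm1(cre/ERT2)Cle/J on C57BL/6, in which green fluorescent protein is expressed from the Lgr5 locus. The cells were sorted from small intestinal crypts for a high green signal after staining with 7-AAD and Annexin V, so every cell described here had passed a gate set for stem cells. The labels name no treatment. The labels number the mice without saying whether a number stands for a single animal. The study's methods list 3 young and 4 old mice, each with its own animal number. Here p-values across mice measure the spread between these samples.

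Enteroendocrine cells are the hormone-secreting cells of the gut epithelium. They arise from crypt progenitors that escape Notch signalling, turn on Atoh1 and then briefly Neurog3, the basic helix-loop-helix factor that the lineage requires. Neurod1, a target of Neurog3, follows and lasts longer, and the maturing cells fill dense-core granules with chromogranins and hormones. Enterochromaffin cells make serotonin with the enzyme Tph1 and substance P from Tac1. Other enteroendocrine cells release cholecystokinin (Cck), glucose-dependent insulinotropic polypeptide (Gip), secretin (Sct) or ghrelin (Ghrl). Lgr5, Olfm4, Smoc2 and Ascl2 are markers of the ISC at the crypt base.

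The 10 promoters help to place these genes, because basic helix-loop-helix factors such as Neurog3 and Neurod1 bind the E-box CANNTG and cyclic AMP response factors bind TGACGTCA. Shown are 5 genes that were often found in the same cells, each with 250 bases before and 50 after the transcription start, 5′ to 3′, from RefSeq on GRCm38.p6. Capitals mark every CANNTG and TGACGTCA. Neurod1 is at chr2:79456587-79456886 on the minus strand, Chga at chr12:102554691-102554990 on the plus strand, Chgb at chr2:132781392-132781691 on the plus strand, Tac1 at chr6:7554811-7555110 on the plus strand and Tph1 at chr7:46672488-46672787 on the minus strand.
Neurod1: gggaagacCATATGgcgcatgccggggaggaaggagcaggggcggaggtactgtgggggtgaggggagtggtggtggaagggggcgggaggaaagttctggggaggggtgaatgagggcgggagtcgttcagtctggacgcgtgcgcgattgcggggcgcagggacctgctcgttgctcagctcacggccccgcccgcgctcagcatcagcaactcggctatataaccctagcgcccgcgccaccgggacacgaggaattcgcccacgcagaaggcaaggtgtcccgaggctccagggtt
Chga: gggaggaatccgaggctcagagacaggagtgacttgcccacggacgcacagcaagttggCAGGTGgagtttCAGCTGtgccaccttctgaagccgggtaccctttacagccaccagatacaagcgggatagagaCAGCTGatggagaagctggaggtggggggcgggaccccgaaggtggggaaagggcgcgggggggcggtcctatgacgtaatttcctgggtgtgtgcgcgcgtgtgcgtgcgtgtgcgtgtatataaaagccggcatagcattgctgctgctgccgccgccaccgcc
Chgb: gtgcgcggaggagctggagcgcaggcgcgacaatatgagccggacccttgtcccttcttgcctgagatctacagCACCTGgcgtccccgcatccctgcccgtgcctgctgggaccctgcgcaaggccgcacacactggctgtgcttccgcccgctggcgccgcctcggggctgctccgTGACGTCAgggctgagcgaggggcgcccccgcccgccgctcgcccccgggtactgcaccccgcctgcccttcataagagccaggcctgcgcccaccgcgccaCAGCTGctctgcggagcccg
Tac1: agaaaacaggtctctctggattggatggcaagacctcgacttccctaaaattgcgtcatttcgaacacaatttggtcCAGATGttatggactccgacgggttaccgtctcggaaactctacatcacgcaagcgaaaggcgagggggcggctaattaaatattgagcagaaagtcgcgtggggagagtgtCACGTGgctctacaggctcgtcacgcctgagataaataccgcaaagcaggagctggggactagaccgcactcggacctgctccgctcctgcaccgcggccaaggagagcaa
Tph1: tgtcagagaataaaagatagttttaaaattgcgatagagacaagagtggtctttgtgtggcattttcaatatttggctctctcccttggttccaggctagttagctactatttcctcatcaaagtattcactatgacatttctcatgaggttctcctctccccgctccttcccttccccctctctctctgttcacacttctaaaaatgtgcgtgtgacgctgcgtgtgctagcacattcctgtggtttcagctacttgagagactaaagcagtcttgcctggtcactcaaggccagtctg
CANNTG was held by 72.3% of all 32851 RefSeq promoters of the same length, and by 9 of the 10 members. The narrower E-box CAGATG, read on both strands and contained in CANNTG, was held by 17.2% of all promoters and by Tac1, Cck and Sct among the members. TGACGTCA was held by 1.79% of all promoters and by Chgb alone among the members, starting 72 bases before its start. The promoter table holds 2 entries for Tph1 and 4 for Ghrl, and the entry nearest to the gene's start was used. These matches describe letters only, and nothing about binding was measured.

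Per mouse, 160 to 376 cells were kept, and the median cell of a mouse held between 211789.5 and 344567.5 reads. The reads carry no molecular identifiers, so intervals below cover counting error only. A cell was called positive for a gene at 10 or more CPM, the counts of the gene scaled to a library of 1e+06 reads. At that level 298 cells (16.2%) were positive for at least 1 of the 10 genes, 92 (5.01%) for at least 2 and 49 (2.67%) for at least 3. The other 1538 cells were positive for none. At least 5 of the 10 genes were found in 25 cells, and 1 cell of young mouse 3 carried 9.

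Neurog3 was rare and ranged widely in level. The gene (ENSMUSG00000044312, chr10:62133090-62134763 on GRCm38, plus strand) was positive in 28 cells (1.53%), and its 3 highest cells held 2075, 1995 and 1708 CPM. Of the 28, 15 held 100 CPM or more and 9 held fewer than 10 reads, and in aged mouse 3 the highest of 3 cells held 67.5 CPM. Among the 28, 6 were positive for no other member and 14 for at least 2 others. Neurod1 (ENSMUSG00000034701, chr2:79452521-79456751, minus strand) was positive in 30 cells (1.63%) and never alone, with 28 of the 30 positive for at least 2 other members. Its levels stayed lower, with 504 CPM in the highest cell. Both factors were found in 12 cells, which is 42.9% of the Neurog3 cells and 40.0% of the Neurod1 cells. Neurog3 shares 273 exon bases with Fam241b on the opposite strand, which had 15964 reads in 1171 cells, and Neurod1 shares 201 exon bases with Cerkl on its own strand, which had 206 reads. Reads in shared bases can be assigned to either gene.

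The chromogranins are acidic proteins that pack the dense-core granules of endocrine cells. Chga (ENSMUSG00000021194, chr12:102554969-102565028, plus strand) was positive in 64 cells (3.49%) and reached 8352 CPM. Chgb (ENSMUSG00000027350, chr2:132781278-132795079, plus strand) was positive in 106 cells (5.77%) and reached 48146 CPM, and 26 cells held over 1000 CPM. Both were positive in 47 cells, or 73.4% of the Chga cells and 44.3% of the Chgb cells. Chgb was the only member of the 10 in 35 cells and Chga in 9. Many of these calls were small, since 48 of the 106 Chgb cells and 29 of the 64 Chga cells held fewer than 10 reads of the gene.

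Tph1, the rate-limiting enzyme of serotonin synthesis outside the nervous system, was confined in these 1836 cells to cells with other members. The gene (ENSMUSG00000040046, chr7:46644641-46672537, minus strand) was positive in 27 cells (1.47%), of which 26 were positive for Chgb and 24 for Chga, and it was the sole member in 0 cells. Tac1 (ENSMUSG00000061762, chr6:7554879-7565834, plus strand), the precursor of substance P, was positive in 26 cells (1.42%), and 17 of them held Tph1. At the stricter level of 100 CPM, all 14 Tph1 cells were positive for Neurod1, Chga and Chgb and 13 of them for Tac1. All 11 Tac1 cells at that level were positive for Chga, Chgb and Tph1. The highest Tph1 cell, of aged mouse 3, held 3544 CPM of Tph1, 2151 CPM of Tac1 and 48146 CPM of Chgb.

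Gip reached the highest level of any member in a single cell. Gip (ENSMUSG00000014351, chr11:96024545-96030831, plus strand) was positive in 26 cells (1.42%), and 5 cells carried 98.7% of its reads. The highest held 54223 CPM and the next 31327 CPM. Of the 9 cells at 100 CPM or more, 7 were positive for Chgb, 5 for Neurod1, 0 for Neurog3 and 0 for Tph1, and all 9 held at least 10 CPM of Lgr5. The other end of the range was faint: 13 of the 26 positive cells held fewer than 10 reads, and 12 of the 26 were positive for no other member. Cck (ENSMUSG00000032532, chr9:121489824-121495694, minus strand) was positive in 19 cells (1.03%), of which 16 were positive for Chgb, 14 for Sct and 4 for Gip. A single cell of young mouse 3, at 1920 CPM, gave 46.1% of all Cck reads.

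Sct was positive in more cells than any other member and sat mostly in cells with goblet genes. The gene (ENSMUSG00000038580, chr7:141278330-141279133, minus strand) was positive in 163 cells (8.88%), and in 107 of them it was the sole member. Levels were mostly low, with a median of 6 reads in positive cells and fewer than 10 reads in 95 of them, although the highest cell held 6108 CPM. Muc2, the gel-forming mucin of goblet cells, was at 10 CPM or more in 80.4% of the 107 cells with Sct alone, in 62.5% of the 56 cells with Sct and another member, and in 14.9% of the 1538 cells with no member. The summed level of the 8 goblet markers had a median of 6609 CPM in cells with Sct alone against 41.2 CPM in cells with no member. The summed level of the 10 Paneth markers, among them lysozyme and defensins, had medians of 13047 and 579 CPM in the same cells. Mice differed widely in the Paneth level of cells with Sct alone, with medians from 1858 CPM in aged mouse 3 to 144979 CPM in young mouse 2. Cells positive for Tac1 or Tph1 had a goblet median of 101 CPM and a Paneth median of 777 CPM. In aged mouse 2, however, the 10 such cells had a Paneth median of 29548 CPM, and in young mouse 1 the 2 such cells had a goblet median of 5412 CPM. Of the 389 cells with Muc2, 31.1% were positive for Sct.

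Ghrl was positive in 40 cells (2.18%) and rested on few reads. The gene (ENSMUSG00000064177, chr6:113716119-113719880, minus strand) was the sole member in 31 of the 40, and 32 of the 40 held fewer than 10 reads of it. A single cell of aged mouse 2, at 11692 CPM, gave 84.8% of all Ghrl reads in the series. That cell also held 190 CPM of Neurog3, 240 CPM of Neurod1, 753 CPM of Chga and 0 reads of Chgb. By a numeric code the 1920 cells fall into 5 groups of 384, called lanes here. The study sequenced 384 cells per lane and also sorted into 384-well plates, so such a group could also be a plate. Cells with 1 to 9 Ghrl reads were found in each of the 5 lanes, 14, 17, 22, 24 and 31 cells, although the lanes held 38, 232, 5244, 97 and 487 Ghrl reads. The count of such cells was therefore not highest in the lane with the most reads. Ghrl shares 169 exon bases with Gm44033 on the opposite strand, and whether the counting used strand is not given in the sources used here. In the 31 cells with Ghrl alone, the summed ISC markers had a median of 20536 CPM, near the 21356 CPM of cells with no member.

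Per kb of exon sequence and averaged over the 7 mice, Gip (87.5 ± 144 CPM per kb, SD, n = 7) and Chgb (54.7 ± 44.9) had the highest levels. Sct (12.8), Ghrl (12.5), Chga (11.2) and Neurog3 (4.21) followed, then Tac1 (1.17), Tph1 (1.13), Cck (1.06) and Neurod1 (0.69). For every pair of neighbours in that order the ranges over the mice overlapped.

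**Figure D1:**
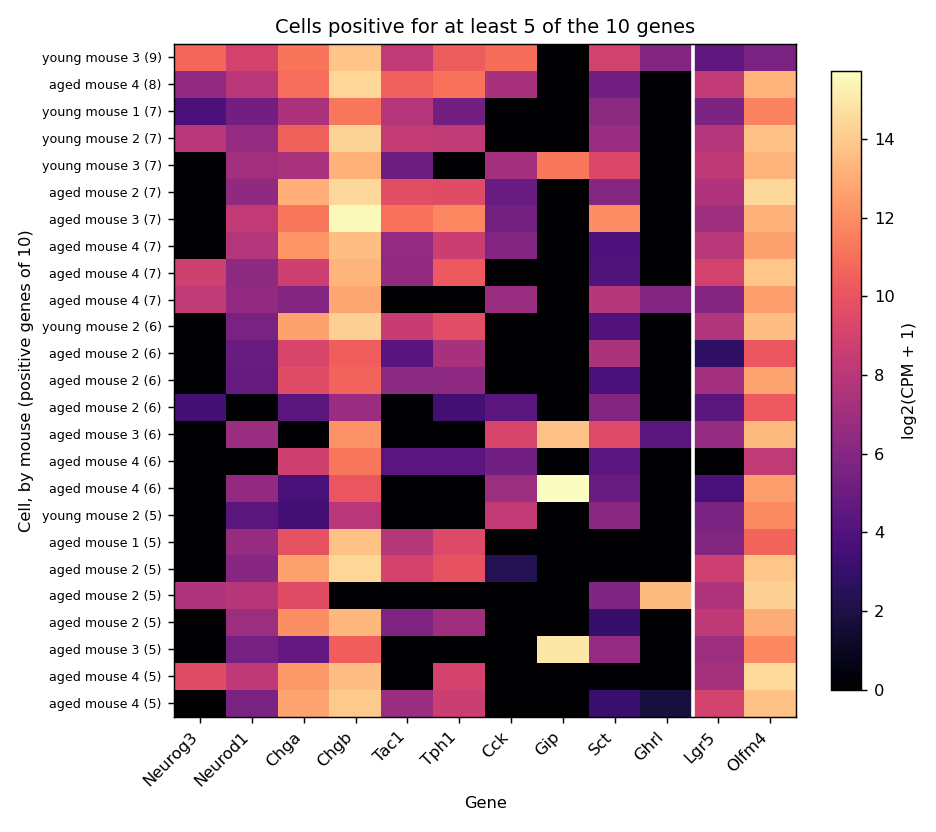
Level of the 10 genes and of Lgr5 and Olfm4, as log2(CPM + 1), in the 25 cells positive for at least 5 of the 10 genes; each row is a cell, named by its mouse and its number of positive genes. Chgb is bright in most rows, Tph1 is dark in each of the 4 rows with bright Gip, and Lgr5 and Olfm4 are on in most rows.

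The cells with 5 or more members show the programme side by side with the stem cell markers. The cell of young mouse 3 with 9 members held 1708 CPM of Neurog3, 504 CPM of Neurod1, 14074 CPM of Chgb, 1306 CPM of Tph1 and 1920 CPM of Cck. Its ISC markers were low, with 22.7 CPM of Lgr5 and 45.4 CPM of Olfm4. The cell of aged mouse 4 with 8 members held 21773 CPM of Chgb and 2136 CPM of Tph1 beside 322 CPM of Lgr5 and 9827 CPM of Olfm4. The 25 cells thus ranged widely in Lgr5, from 0 to 541 CPM, and 92.0% of them held at least 10 CPM. The 4 cells of this group with Gip, at 2521, 13307, 54223 and 31327 CPM, held 0 reads of Tph1 each.

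Co-expression was compared in each mouse as the share of positive cells among cells with and without the first gene of a pair. For 42 of the 45 pairs the mean difference over mice was positive, and 13 pairs were higher in every mouse that could be used. With 7 mice an exact sign-flip permutation test (two-sided) cannot give a p below 0.0156, and 12 pairs reached it, 1 of them in the lower direction. After Benjamini-Hochberg adjustment over the 45 pairs the lowest permutation p was 0.0586, so 0 pairs passed 0.05, and 18 pairs had an unadjusted p below it. Neurod1 cells held Chga in 25 of 30 cells against 2.16% of the other cells, a mean difference of 82.2 ± 12.5 percentage points (SD, n = 7 mice, adjusted exact p = 0.0586). Chga cells held Chgb in 73.4% against 3.33% of the other cells, a mean difference of 70.0 ± 21.6 points with the same exact p. Tac1 cells held Tph1 in 65.4% against 0.553%, a mean difference of 63.1 ± 27.6 points, again with the smallest exact p. Some of these values rest on 1 cell, since young mouse 1 and aged mouse 1 had 1 Neurod1 cell each and young mouse 1 had 1 Tac1 cell. Chga cells held Sct in 48.4% against 7.45%, higher in 7 of 7 mice. Tph1 and Gip were found together in 0 cells, which allows a share of up to 11.1% of the 27 Tph1 cells, and Gip was positive in 1.44% of the other cells. The Tph1 cells are thus too few to tell 0 from the share of Gip elsewhere.

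**Figure D2:**
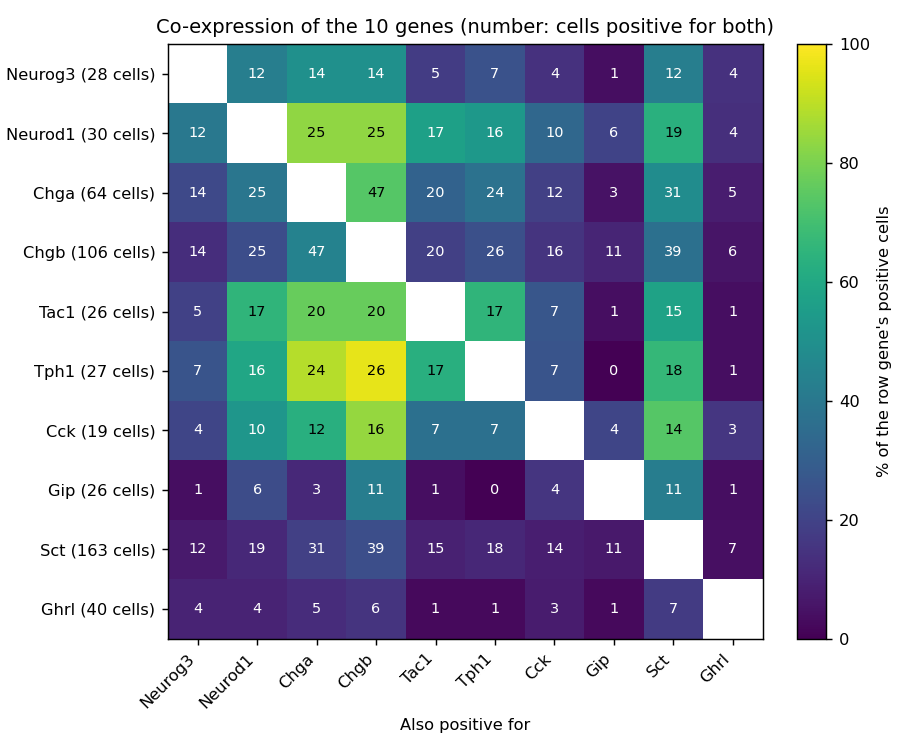
Co-expression of the 10 genes; the number in a square is the count of cells positive for the row and the column gene, and the colour is that count as a percent of the row gene's positive cells. Most Neurod1, Tac1 and Tph1 cells are also positive for Chga and for Chgb. Of the Chgb cells 44.3% are positive for Chga, and smaller shares for Neurod1, Tac1 or Tph1. Sct and Ghrl rows are dark, and the square of Tph1 and Gip holds 0.

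Correlation across the 1836 cells describes the same pairs. On log2(CPM + 1), Tac1 and Tph1 had Pearson's r = 0.80, Chga and Chgb 0.78, Neurod1 and Chga 0.70, Neurog3 and Neurod1 0.44, and Tph1 and Gip -0.01. The cells share mice, lanes and a large majority at 0, so these values are descriptions. Among 22540 genes with a read in at least 20 cells, the 5 genes most like Neurog3 were Gfra3 (r = 0.70), Insm1, Pax4, Rimbp2 and Nkx2-2. Those most like Neurod1 were Rfx6 (r = 0.86), Myt1, Gng4, Rimbp2 and Scn3a. For Chga they were Chgb, Scn3a, Tph1, Fev and Rab3c, and for Chgb they were Chga, Fev, Scn3a, Tph1 and Gng4. Tac1 was most like Scn3a (r = 0.82), Rab3c, Slc38a11, Tph1 and Pappa2, and Tph1 was most like Scn3a (r = 0.85), Rab3c, Slc38a11, Tac1 and Chga. Cck was most like Dnah9 (r = 0.58), Gng4, Adgrg4, Scgn and Scg5, and Gip was most like Dact1 (r = 0.43), Scgn, Adgrg4, Itga4 and Dnah9. The genes most like Sct were Hepacam2 (r = 0.63), Tff3, Hpd, Muc2 and Guca2a, and its r with Atoh1 was 0.52. Those most like Ghrl included its overlapping gene Gm44033 (r = 0.59), Nefm, Scgn and Pclo.

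Cells positive for at least 2 of the 10 genes carried a wider enteroendocrine programme and lower ISC markers than cells positive for none. Reads were summed per mouse in the 92 and the 1538 cells, the 10 genes were left out, and edgeR's quasi-likelihood test was run with the mouse as a block. Of 17110 genes tested, 562 rose (3.28%) and 245 fell (1.43%) at an adjusted p below 0.05. DESeq2 called 1162 higher (6.79%) and 596 lower (3.48%), and edgeR without its filter called 2.21% of 34775 genes higher. The count of rises fell to 271 without young mouse 3, 355 without young mouse 2 and 374 without aged mouse 3, so its size depends on single mice. The median change of all genes was -0.11 on the log2 scale, and changes below are to be read against it. Many enteroendocrine genes passed the filter on low counts through the 92 cells alone, so the counts of the lists are descriptions.

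Of the 20 transcription factors of the lineage, 12 passed the filter, 6 rose and 0 fell by edgeR. Without the filter 12 of 20 rose. Rfx6, which acts downstream of Neurog3 in endocrine cells, went from 42 reads in the 1538 cells to 2848 reads in the 92 cells, or from 0.0757 ± 0.0591 to 104 ± 60.2 CPM (SD, n = 7 mice). Pax6 rose by 5.95 ± 0.82 (log2, SE, edgeR adjusted p = 0.00138), St18 by 5.19 ± 0.65 and Rfx3 by 1.10 ± 0.16. Fev, a factor of serotonin-producing cells, had 1 read in the 1538 cells and 812 in the 92, and Myt1 had 4 and 616. Pax4, Isl1, Insm1, Nkx2-2 and Lmx1a did not pass the filter, with 691, 1383, 407, 354 and 648 reads in the 92 cells against 0, 4, 4, 28 and 0 in the 1538.

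In the Notch and secretory fate list, 9 genes were tested, 2 rose and 2 fell. Without young mouse 3 or without aged mouse 4, 0 rose and 1 fell by edgeR, without young mouse 2, 1 rose and 1 fell, and with at least 1 positive member 5 rose. Dll4, a Notch ligand, rose by 1.56 ± 0.35 (log2, SE, edgeR adjusted p = 0.0221) and Spdef, a factor of goblet and Paneth cells, by 2.73 ± 0.62. Hes1, the Notch target that represses Atoh1, fell by 0.94 (edgeR adjusted p = 0.00771) and Notch1 fell by 0.59 (edgeR adjusted p = 0.0287), both lower in 7 of 7 mice. Atoh1 had a change of 2.12 ± 0.61 with an edgeR adjusted p of 0.0669.

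Granule and hormone-processing genes moved in 1 direction. Of 22, 13 were tested, 11 rose and 0 fell, with a median of 4.61 on the log2 scale, and without the filter 18 of 22 rose. Pcsk1, which cuts prohormones, went from 22.3 ± 13.1 to 186 ± 89.5 CPM (SD, n = 7), a rise of 3.35 ± 0.37 (log2, SE, edgeR adjusted p = 0.000243). Pam, which amidates peptide hormones, rose from 10.8 to 104 CPM, and Cpe, which trims cut hormones, from 0.131 to 190 CPM. Of the 6 tested genes in the list for serotonin synthesis and handling, 4 rose. They were Ddc, which makes serotonin from the Tph1 product (1.27 ± 0.23, edgeR adjusted p = 0.00548), Gch1 of cofactor synthesis (3.93 ± 0.57), Maoa, which breaks serotonin down (0.95 ± 0.17), and the vesicle transporter Slc18a1 (4.35 ± 0.63). Slc6a4, the serotonin transporter of the plasma membrane, had a change of 0.13 ± 0.27 and did not pass. The list also names Sepp1 and Gstt1, which neither make nor carry serotonin. Of 19 nutrient receptors and channels, 4 were tested and 1 rose, the short-chain fatty acid receptor Ffar2 (5.53 ± 0.33, edgeR adjusted p = 3.1e-07).

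Other gut hormones could not be tested, since 0 of 14 passed the filter. Gast had 15166 reads in the 92 cells, all in 1 of 7 mice, and 43 in the 1538 cells. Gcg had 3897 reads against 39, Sst 2889 against 18, Ucn3 665 against 1 and Pyy 244 against 1. Insl5, Penk, Galp and Adcyap1 had 0 reads in the 92 cells.

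Markers of other epithelial lineages moved with the enteroendocrine genes. Of 8 goblet markers, 7 rose, with a median of 4.39 on the log2 scale. Zg16 had 10.8 ± 20.4 CPM in the 1538 cells and 2411 ± 2497 CPM in the 92 (SD, n = 7), and Muc2 had 64.2 ± 45.7 and 2206 ± 2629 CPM. Of 12 enterocyte markers, 9 rose, with a median of 2.74, Alpi among them by 3.62 ± 0.79 (log2, SE, edgeR adjusted p = 0.0202). Without young mouse 2 or without young mouse 3, 5 enterocyte markers rose. Of 10 Paneth markers 0 passed by edgeR, with a median of 0.75, 2 had an unadjusted p below 0.05 and DESeq2 called 2 higher. When the class was widened to cells with at least 1 positive member, 9 of 10 Paneth markers rose with a median of 2.66, and 3 rose when 1 read made a cell positive. Of 14 proliferation genes edgeR called 0, with 6 at an unadjusted p below 0.05, and DESeq2 called 2 lower. Of 9 tested tuft markers and 5 immune markers 0 passed by edgeR or DESeq2, with 0 and 1 at an unadjusted p below 0.05. Of the stromal and neuronal lists, Vim and Tubb3 alone rose, and Col1a2, Col3a1 and Pdgfra had 0 reads in the 92 cells. With the class rebuilt on the 9 genes other than Sct, a choice made after seeing the data, 363 genes rose and 81 fell, 7 of 8 goblet and 6 of 12 enterocyte markers rose, and 10 of 12 tested granule genes rose. With the stricter level of 100 CPM, 1 of 8 goblet and 5 of 12 enterocyte markers rose, while 16 of 16 tested granule genes did. That rule left 35 cells in 5 mice. Its 1426 reference cells took in cells with members between 10 and 100 CPM, so both sides of the comparison changed. The goblet median was still 2.47 on the log2 scale. The part of goblet and enterocyte RNA in the other changes was not tested, and no doublet caller was run.

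**Figure D3:**
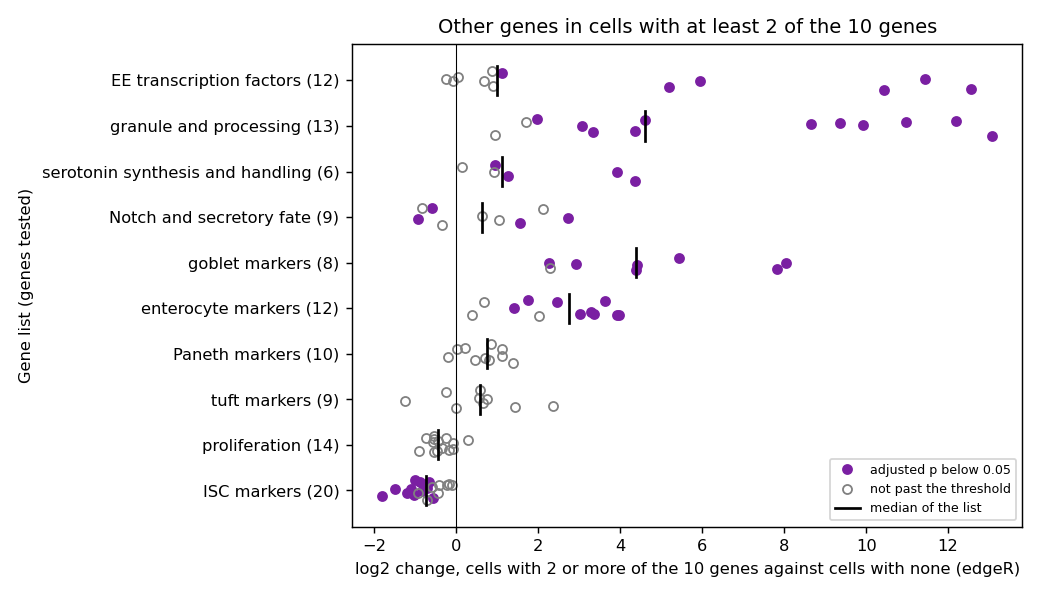
Change of each tested gene between cells positive for at least 2 of the 10 genes and cells positive for none, by list, as log2 from edgeR over 7 mice; filled points have an adjusted p below 0.05 and a bar marks the median of the list. Granule, goblet and enterocyte genes lie to the right of 0 and most ISC markers to the left, and the values of genes with 3 or fewer reads in the cells with none depend on the prior count.

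The rises with the same direction in every mouse, 287 of the 562, were led by genes almost absent elsewhere. Scn3a, a sodium channel subunit, had 1 read in the 1538 cells and 1288 in the 92, or 61.0 ± 37.2 CPM (SD, n = 7 mice). Rimbp2, of the release site of vesicles, had 2 and 1392 reads, Rab3c, a vesicle GTPase, 6 and 1444, and the potassium channel Kcnb2 1 and 290. March4 had 1 and 190, Tubb3 2 and 262, and Gfra3, a receptor of the GDNF family ligands, 43 and 1876. The list also holds Fev, Myt1 and Rfx6. The 10 largest falls with 1 direction in every mouse were all of low genes with 2 or fewer reads in the 92 cells. They were C030037D09Rik (800 reads in the 1538 cells and 0 in the 92), Pcdhb4 (682 and 0), Them6, Olfr543, Gm29123, B230217O12Rik, Gm49197, Gm43913, Synm and Gm33858. At their mean of about 1 to 2 CPM the reads of the 92 cells limit what can be seen. The class difference was set against age as an interaction, and edgeR called 0 of 17110 genes, with 495 at an unadjusted p below 0.05.

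The ISC markers were lower in the cells with at least 2 members, and most of these cells still expressed them. Of 20 ISC markers, 12 fell and 0 rose by edgeR, with a median of -0.75 on the log2 scale. Without young mouse 3, 6 fell. Lgr5 went from 366 ± 96.3 CPM in cells with no member to 170 ± 61.7 CPM (SD, n = 7 mice, edgeR adjusted p = 0.0107), and Olfm4 from 16032 ± 2676 to 7312 ± 2936 CPM (edgeR adjusted p = 0.0074). Smoc2, Ascl2, Axin2, Rnf43, Znrf3, Tnfrsf19, Cdca7, Sp5, Sox9 and Igfbp4 also fell. At 10 CPM or more, Lgr5 was present in 79 of the 92 cells (85.9%) and in 95.4% of the 1538.

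Averaged over single cells within each mouse, Lgr5 was 6.01 ± 0.94 on log2(CPM + 1) in the 92 cells and 7.76 ± 0.63 in cells with no member (SD, n = 7 mice). The difference was -2.74, -1.20 and -1.35 in young mice 1 to 3 and -2.73, -1.08, -1.92 and -1.26 in aged mice 1 to 4. It was thus lower in 7 of 7 mice, the most a two-sided exact sign-flip permutation test can show (p = 0.0156, adjusted over 60 tests 0.0625). Olfm4 differed by -1.65, Smoc2 by -1.45 and Ascl2 by -1.63, each lower in 7 of 7 mice with the same exact p. The Lgr5 difference did not separate by age, with aged minus young at 0.014 (exact permutation p = 0.971), and young mouse 1 and aged mouse 1 had the largest differences. The 92 cells held fewer reads than the others, a median of 233825 against 312794. With each cell thinned to 100000 reads, the difference in Lgr5 was -1.11 ± 0.63 in 6 mice and lower in 5 of 6 (exact p = 0.0625, adjusted 0.156). Thinning also rebuilt the class, to 99 cells, since 1 read then made a cell positive. Young mouse 1, at -2.74 before thinning, was not among the 6 mice. The part of depth alone was not tested.

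Lgr5 did not go down evenly with the number of members. Its mean over cells was 7.87 on log2(CPM + 1) with 0 positive members, 7.05 with 1, 6.30 with 2, 5.26 with 3 to 4 and 6.55 with 5 or more. By gene, the difference in Lgr5 was -1.88 ± 0.62 for Chga and -1.36 ± 0.45 for Sct (SD, n = 7 mice, lower in 7 of 7 for both, adjusted exact p = 0.0625). For Chgb it was -1.25 ± 0.61 in 6 mice and for Cck -2.34 ± 0.30 in 4 mice, lower in each. For Gip it was -0.20 ± 1.05, lower in 2 of 4 mice, and for Ghrl -0.16 ± 0.86, lower in 2 of 5. Neurod1 (-0.55, lower in 4 of 5 mice), Tph1 (-0.60, 3 of 3), Tac1 (-0.99, 4 of 4) and Neurog3 (-1.25, 4 of 4) lay between. Differences between these genes were not tested.

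**Figure D4:**
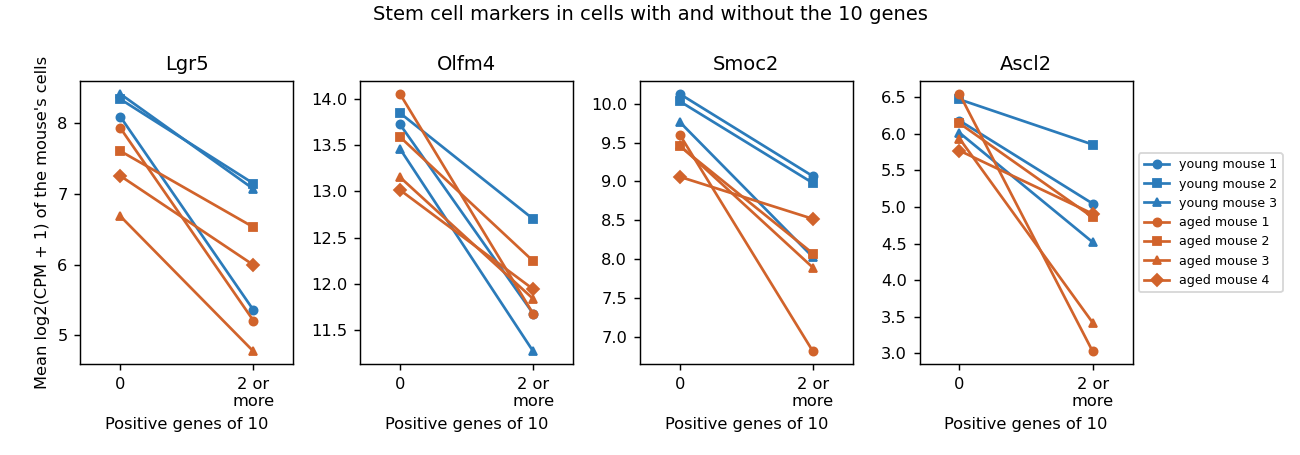
Mean log2(CPM + 1) of Lgr5, Olfm4, Smoc2 and Ascl2 in the cells of each mouse positive for 0 and for 2 or more of the 10 genes; each line is 1 of the 3 young (blue) or 4 aged (orange) mice, and the vertical axes do not start at 0. All 7 lines go down in each of the 4 panels.

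Aged mice had a higher mean share of positive cells for 9 of the 10 genes, and no share passed the test. Across 17846 genes with at least 19 positive cells, 47.8% had a higher mean share in aged mice, and 45.6% among 5621 genes with 19 to 163 positive cells, the range of the members. The members share cells, so their directions are not independent. Of cells positive for at least 2 members, young mice 1 to 3 had 3.13%, 2.16% and 2.39%, and aged mice 1 to 4 had 2.65%, 11.3%, 5.82% and 9.02%. The 95% exact binomial intervals were 0.938 to 4.22% for young mouse 2 and 7.13 to 16.7% for aged mouse 2. Aged mouse 1 lay among the young mice and the other 3 aged mice above them. The mean was 2.56 ± 0.50% in young and 7.19 ± 3.77% in aged mice (two-sided exact permutation p = 0.0857, adjusted over 13 comparisons 0.223), where 3 against 4 mice cannot give a p below 0.0286.

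Sct was positive in 6.88%, 4.59% and 5.32% of the cells of young mice and in 6.88%, 15.6%, 10.6% and 14.5% of those of aged mice. The groups did not overlap, but young mouse 1 (11 of 160 cells) and aged mouse 1 (13 of 189) differed by less than 0.01 points (exact permutation p = 0.0571, adjusted 0.223). The groups overlapped for Sct when a positive cell needed 1 read, 10 reads or 100 CPM, and did not overlap in cells thinned to 100000 reads. Chga was positive in 2.50%, 0.811% and 2.13% in young and in 3.70%, 8.60%, 3.17% and 5.46% in aged mice, also without overlap (exact permutation p = 0.0857, adjusted 0.223). Groups without overlap and with aged mice above were found for 2.43% of the 17846 genes and for 3.27% of the 5621 genes within the members' range.

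At 10 CPM in the kept cells, the other members overlapped between the groups. Chgb was positive in 3.75%, 4.05% and 2.66% in young and in 1.06%, 10.2%, 8.47% and 10.4% in aged mice, so aged mouse 1 was the lowest of all 7 and the other 3 aged mice the highest (exact permutation p = 0.2). Cck had 0%, 0.270% and 0.798% in young and 0.529%, 2.15%, 1.59% and 1.91% in aged mice (exact permutation p = 0.0857), where the 0 of 160 cells of young mouse 1 allow a share of up to 1.88%. Neurog3 was found in 1.25%, 0.270% and 0.798% of the cells of young mice and in 0%, 2.69%, 1.59% and 3.83% of those of aged mice, with a limit of 1.59% for aged mouse 1. Tph1 ranged from 0.266 to 1.25% in young and from 0.529 to 5.38% in aged mice, and Tac1 from 0.625 to 1.08% and from 1.06 to 3.23%. Ghrl was the exception in direction, at 2.20 ± 0.86% in young and 1.94 ± 0.66% in aged mice (exact permutation p = 0.657). That direction turned when positive cells needed at least 10 reads (0.268 points higher in aged mice) and in thinned cells (0.591 points higher).

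**Figure D5:**
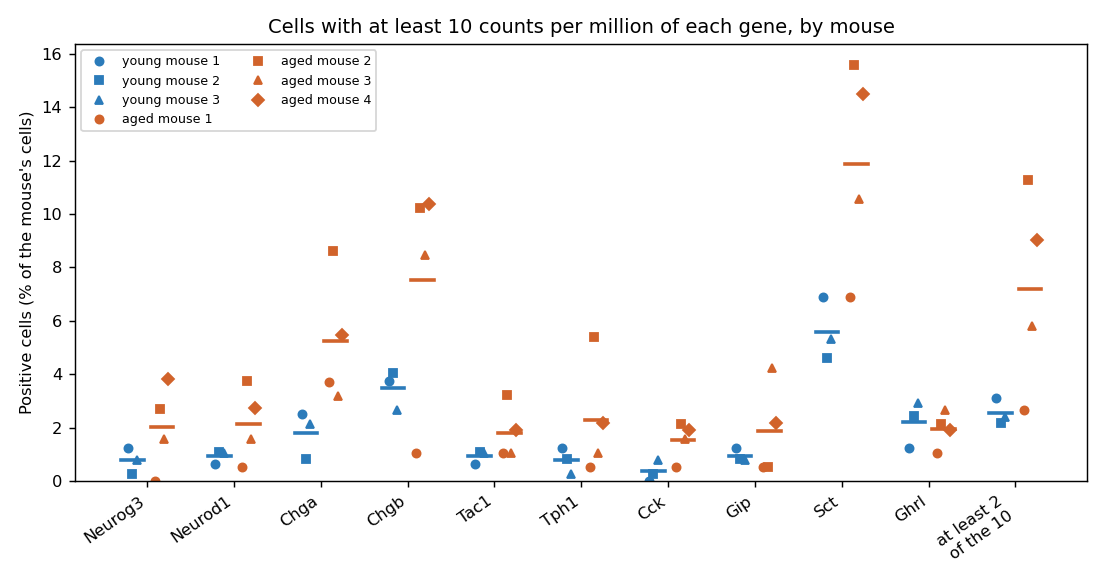
Share of cells with at least 10 CPM of each of the 10 genes, and of cells positive for at least 2 of them, in percent of the cells of each mouse; points are the 3 young (blue) and 4 aged (orange) mice and bars the group means. Aged mouse 1 lies within or below the range of the young mice for every gene but Chga and, barely, Sct. Sct has the highest shares.

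Depth and lane were set beside these shares. In cells thinned to 100000 reads, where 1 read is 10 CPM, the share with at least 2 members was 1.60 ± 1.01% in young and 9.03 ± 5.32% in aged mice, without overlap (exact permutation p = 0.0571, adjusted 0.248). Chgb, at 3.44 ± 0.05% and 9.33 ± 4.10%, and Sct, at 5.74 ± 0.39% and 14.0 ± 5.26%, were also without overlap, each with the same exact permutation p. The groups overlapped for Chga (exact permutation p = 0.171) and for all other members. Of the 5 lanes, 3 held cells of a young and an aged mouse. Within them the share with at least 2 members was higher in the aged mouse by 0.472, 2.70 and 9.14 points, and Sct by 2.53, 3.71 and 10.8 points. Young mouse 2 was the young side of lanes 1 and 3, so these differences rest on 2 young mice. The share with at least 3 members was 0.558 points lower in the aged mouse of lane 1 and 2.98 and 5.38 points higher in lanes 2 and 3. Chgb was 4.92 points lower in aged mouse 1 than in the cells of young mouse 2 on its lane and 4.72 and 8.06 points higher in the other aged mice. Lane 4 held cells of aged mouse 4 alone and lane 5 cells of young mouse 3 alone, so lane and age cannot be told apart there.

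Reads summed over all kept cells of a mouse gave the same 10 genes on another scale, on which fewer cells of a type and less RNA per cell cannot be told apart. By edgeR 0 of 20957 genes passed an adjusted p of 0.05 between aged and young mice (0.0%), with 1098 genes (5.24%) at an unadjusted p below 0.05. DESeq2 called 117 higher (0.558%) and 60 lower (0.286%), and limma voom 1 and 1. In simulated data for this comparison DESeq2 called 79 unchanged genes and edgeR 9, so DESeq2 calls are to be read with care. The noise of those data was drawn from edgeR's own estimates, a setting that may favour edgeR. Among the 10 members, 4 had an unadjusted p below 0.05 by edgeR and all 4 were higher in aged mice. They were Chga, Chgb, Tac1 and Tph1, which share cells, so neither their p-values nor their lack of overlap are independent. Chgb, Tac1 and Tph1 did not overlap between the groups, as was so with aged mice above for 2.56% of all genes tested.

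Tac1 had 0.356, 1.18 and 1.10 CPM in young and 1.58, 7.71, 10.2 and 5.64 CPM in aged mice, a difference of 2.82 ± 0.65 (log2, SE, edgeR p = 0.00173, adjusted 0.380). By DESeq2 it was 2.85 with an adjusted p of 0.000398, and Tac1 was the only member that DESeq2 called. In simulated data DESeq2 called more unchanged genes than edgeR did, but those data do not cover genes whose reads come from few cells, such as Tac1. Tph1 had 0.0990, 1.44 and 2.60 CPM in young and 3.86, 9.75, 16.9 and 14.2 CPM in aged mice (3.00 ± 0.85, edgeR adjusted p = 0.664). Chgb had 4.42, 65.7 and 68.2 CPM in young and 76.8, 271, 258 and 305 CPM in aged mice (2.31 ± 0.79, edgeR adjusted p = 0.808). The lowest aged mouse was aged mouse 1 for Tac1, Tph1 and Chgb, close above the highest young mouse. A single cell gave 81.7% of its Tac1 reads, 100.0% of its Tph1 reads and 99.7% of its Chgb reads. In aged mouse 3 a single cell gave 99.4% of the Tac1, 99.5% of the Tph1 and 88.2% of the Chgb reads, and in aged mouse 4 a single cell gave 84.5% of the Tac1 reads. Young mice depended on single cells as well. The highest cell gave 100.0% of the Tac1 and 88.3% of the Chgb reads in young mouse 1. It gave 71.4% of the Chgb reads in young mouse 2 and 99.7% of the Tph1 reads in young mouse 3. Chga had 0.515, 9.54 and 6.66 CPM in young and 5.96, 100.1, 12.8 and 79.6 CPM in aged mice, which overlapped (3.14 ± 1.11, edgeR adjusted p = 0.816).

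Single cells also weighed on the other members. Gip had 0.178, 57.8 and 10.3 CPM in young and 0.647, 4.25, 274 and 73.5 CPM in aged mice, and Ghrl had 85.9 CPM in aged mouse 2 and at most 3.66 CPM in the other mice. Without aged mouse 2 the Ghrl difference went from 3.88 to -0.088. Neurog3 (-0.43 ± 1.48) and Cck (-0.75 ± 1.43) had lower fitted levels in aged mice although their mean shares of positive cells were higher, and neither passed by edgeR. Both signs depended on 1 mouse. Without young mouse 1 Neurog3 was at 0.62, and without young mouse 3 Cck was at 1.53. Sct (1.29 ± 0.63) and Neurod1 (1.37 ± 0.96) did not pass either.

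Among the transcription factors, the granule genes and the serotonin list, edgeR, DESeq2 and limma voom called 0 between aged and young mice. By edgeR, 3 of 19 tested transcription factors, 1 of 19 granule genes and 1 of 6 genes of the serotonin list had an unadjusted p below 0.05. Their median differences were 0.77, 0.21 and 0.28 on the log2 scale, where the median of all genes was 0.01. Of the other gut hormones 3 could be tested, with a median of -3.08, and edgeR and limma voom called 0. Gcg, the precursor of glucagon-like peptides, had 0.119, 4.20 and 25.3 CPM in young and 0, 0.0165, 0.0734 and 0.258 CPM in aged mice, which overlapped. It had an unadjusted edgeR p of 0.00158 (adjusted 0.380) and was called lower by DESeq2 (adjusted p = 0.0294). Sst was at -3.08 and Ucn3 at 2.91 on the log2 scale, and neither passed. The 12 enterocyte markers had a median difference of 1.41, with 7 at an unadjusted p below 0.05 and 2 called higher by DESeq2, the 8 goblet markers 0.70 with 0, and the 20 ISC markers -0.25 with 4. These values stand beside the members' shares in the aged mice, and their part in those shares was not tested.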

How the data were processed

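Single Lgr5-high ISCs were sorted and made into libraries by Smart-seq2 with 21 PCR cycles, and 384 cells shared a lane. Per the submitters' processing notes and the study's methods, the authors used GRCm38, HISAT2 and HTSeq, checked quality with Picard, and the values they deposited are unnormalized counts of reads, 1 column for each cell. The annotation and strand setting are not given in the sources. Cell names were unique (0 duplicates), 55144 of 55471 identifiers matched a GENCODE M21 symbol, and the reads of the others were 0.0307% of all.

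The 1836 cells at or above 1000 detected genes entered the analysis, with totals from 1695 to 1733912 reads. From these counts CPM per cell, shares of positive cells per mouse and co-expression were computed and tested by exact permutation (shares, 35 divisions of the mice) or exact sign-flip tests over mice with at least 3 cells of a class (stem markers). Counts summed per mouse were tested with edgeR 4.0.16 (R 4.3.3, TMM, its filter on low counts). DESeq2 1.42.0, limma 3.58.1 voom, no filter, all 1920 cells, the 1808 cells at or above 2500 detected genes, thinned cells, equal weights, lane and replicate blocks, other class rules and each mouse left out were alternatives. Python 3.11.15, numpy 2.4.6, scipy 1.17.1 and pandas 2.3.3 were used. Tested on simulated data, edgeR called 95.0% of 200 genes changed by a log2 of 3 between aged and young mice among 20479 genes, and 99.0% between the cell classes among 16789 genes. It also called 9 and 12 unchanged genes, while DESeq2 called 96.5% and 99.5% of the changed genes with 79 and 46 unchanged genes. The changed genes were drawn from those with higher counts, and noise was drawn per mouse from edgeR's own estimates. These shares therefore do not cover genes whose reads come from few cells, such as the members.

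The genes named are the members, their 5 most correlated genes, list genes that passed or define a list, and the 10 largest rises and falls between the classes with 1 direction in every mouse, and 1 gene that the rule names is not reported here. Members and lists were chosen with earlier results of these data known.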

Additional observations from a re-analysis of the deposited data

Results flagged for a closer look

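Ghrl in aged mouse 2, at 85.9 CPM of summed reads, lay far from the other 3 aged mice and was the only far value among 28 groups of 4 aged mice checked, where chance gives about 1 in 20 groups. A single cell carried most of these reads, as described above. Among the 84 cells left out for too few detected genes, Chga had 4 reads in 2 cells and Chgb 9 reads in 4 cells, while Sct had 1 read and the other 7 members had 0. The flag was set at more than 3 reads. Reads without molecular identifiers are not independent counts, so the flag is not a test.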

How the results depend on the processing

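Between aged and young mice edgeR's 0 higher and 0 lower genes became 117 and 60 with DESeq2, 1 and 1 with voom, 14 and 8 without the filter, 13 and 2 in thinned cells, 8 and 2 with cells weighted equally, 0 and 1 with lane as a block, and 0 to 5 and 0 to 3 with a mouse left out. Between the cell classes the 562 rises and 245 falls became 1162 and 596 with DESeq2, 363 and 81 with Sct not counted, 669 and 155 with at least 3 positive members, 646 and 110 at 1 read, 529 and 138 at 100 CPM, 769 and 455 without the filter, and 271 to 710 and 76 to 314 with a mouse left out. Left out singly, young mice 2 and 3 and aged mouse 3 gave 355, 271 and 374 rises, young mice 2 and 3 gave 90 and 76 falls, and aged mice 1 to 4 gave 139, 145, 103 and 146 falls. Co-expressed pairs higher in every mouse went from 13 to 6 at 100 CPM. The cause of these shifts was not tested, apart from fewer mice, cells or genes by construction.

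Single values changed direction as follows. Neurog3 (-0.43) was 0.53 in thinned cells and 0.62 without young mouse 1. Cck (-0.75) was 1.85 with lane as a block and 1.53 without young mouse 3. Ghrl (3.88) was -0.088 without aged mouse 2. The share of Ghrl cells (-0.261 points) was 0.268 at 10 reads, 0.178 at 100 CPM, 0.591 in thinned cells, 0.100 without young mouse 3 and 0.0335 without aged mouse 1. Tac1 passed with DESeq2 (2.85). Of 245 values under the other alternatives 219 kept their direction and side of the threshold, as did 213 of 231 with a mouse left out.

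The replicate number was also used as a block between aged and young mice, which called 0 genes. The deviations of same-numbered mice had correlations of -0.0168, 0.105 and -0.110. With so few pairs and no reference for paired mice, these values cannot tell whether the numbers pair the mice. Without the mouse as a block, 702 genes rose and 179 fell between the cell classes. The faint members rested on few reads, since 32 of 40 Ghrl cells and 95 of 163 Sct cells held fewer than 10 reads. The part of depth in this was not tested.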
